A study of Mus musculus with 2 samples.

Results

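Described here are 10 genes for transcription factors shared by blood and endothelial development: Gata2, Gata3, Gata6, Tal1, Lyl1, Lmo2, Hhex, Runx1, Runx2 and Runx3. They were chosen by symbol, as family members or known partners of each other, and all 10 were found among the 17333 genes listed in either library. RNA sequencing was done on mouse mammary cells, freshly sorted from adult virgin animals aged 8 weeks. It gave 1 library of Procr-positive (Procr+) and 1 library of Procr-negative (Procr-) cells. The labels name both as mammary vascular endothelial cells, Procr-expressing and non-Procr-expressing. All cells had been gated as lineage-negative and as positive for CD105, CD31 and Sca1, and no treatment or engineered allele is named in the labels. The sources used here give neither the strain nor the number of animals per library. With 1 library per group no difference has a replicate check, so no p-value is given, and every interval in brackets is a 95% interval for counting error only.

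GATA factors are zinc-finger proteins that bind the letters GATA in DNA. In endothelium and in blood progenitors Gata2 works in a complex with Lmo2, Ldb1 and the basic helix-loop-helix factors Tal1 or Lyl1. Within it Lmo2, a LIM-domain protein that does not bind DNA itself, bridges GATA proteins to Tal1 or Lyl1. Hhex is a homeobox factor of early endothelial, blood and liver development, and Runx1 is needed for blood cells to arise from embryonic endothelium. In the mammary gland Gata3 is a main regulator of luminal epithelial cells, and Runx1 is also known from mammary epithelium.

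Of the 10 genes, 5 were higher in the Procr+ library, namely Gata2, Gata6, Tal1, Lmo2 and Hhex, by read ratios of 4.24-fold to 10.2-fold. Gata3 and Runx1 went the other way and were 17.1-fold and 7.14-fold higher in the Procr- library. Lyl1, Runx2 and Runx3 were low in both libraries, at 1.19 RPKM or less. RPKM is reads per kb of gene length, scaled to the library's unique reads, as deposited by the authors. Directions were thus opposite within the GATA family, and Runx1 went against Tal1 and Lmo2. Among the 12509 genes that reached 1 RPKM in either library, 13.1% were higher and 23.7% lower in the Procr+ library by 2-fold or more on the log2(RPKM + 1) scale. In bulk libraries fewer cells of a type and less RNA per cell cannot be told apart.

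The RefSeq promoter windows of GRCm38, the assembly behind mm10, span 250 bases before to 50 bases after a gene's start, and 12 windows of 8 of the 10 genes were searched. The letters sought on both strands were AGATAA or TGATAA or the same ending in G (AGATAG or TGATAG) for GATA factors, CCGGAA or CAGGAA for ETS factors, TGTGGT or TGCGGT for RUNX factors, and the E-box CANNTG bound by factors such as Tal1. Matches of different motifs may overlap. GATA letters were found in 2 of the 12 windows and in 29.6% of all 32544 windows of this length, and ETS letters in 6 of 12 against 41.3%. RUNX letters were found in 3 of 12 against 22.4%, and the E-box in 8 of 12 against 72.3%. A match is a description of the letters and does not show that a factor binds.

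Of genes with opposite directions, Tal1 and Gata2 (higher in the Procr+ library) and Gata3 (higher in the Procr- library) are shown, with capitals marking every match. The Tal1 window is the upstream one of 2 (chr4:115056176-115056475, plus strand) and holds TTATCT, the reverse complement of AGATAA, and an E-box. The Gata2 window is the downstream one of 2 (chr6:88198414-88198713, plus strand) and holds an E-box. The other Tal1 window and the other Gata2 window, not shown, hold no match of any of these motifs. The Gata3 window (chr2:9878551-9878850, minus strand) holds ETS letters, an E-box and TGATAG. It lies inside the span of Gata3 (9857078 to 9887953), and no window was given at the 5′ end of that span. The windows shown are written from 5′ to 3′ and credited to RefSeq, GRCm38.p6.
Tal1: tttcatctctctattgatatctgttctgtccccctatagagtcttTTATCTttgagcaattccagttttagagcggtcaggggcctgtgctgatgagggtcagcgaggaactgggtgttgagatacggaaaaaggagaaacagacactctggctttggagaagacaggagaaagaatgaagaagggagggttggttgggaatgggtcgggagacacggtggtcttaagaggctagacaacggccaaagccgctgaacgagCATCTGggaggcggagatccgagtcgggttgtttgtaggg
Gata2: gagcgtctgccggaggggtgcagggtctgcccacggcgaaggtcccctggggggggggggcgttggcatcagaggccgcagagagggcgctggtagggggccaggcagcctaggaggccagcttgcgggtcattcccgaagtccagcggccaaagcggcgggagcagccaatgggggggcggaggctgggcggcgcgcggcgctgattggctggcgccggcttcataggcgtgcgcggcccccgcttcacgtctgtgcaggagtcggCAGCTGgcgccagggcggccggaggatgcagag
Gata3: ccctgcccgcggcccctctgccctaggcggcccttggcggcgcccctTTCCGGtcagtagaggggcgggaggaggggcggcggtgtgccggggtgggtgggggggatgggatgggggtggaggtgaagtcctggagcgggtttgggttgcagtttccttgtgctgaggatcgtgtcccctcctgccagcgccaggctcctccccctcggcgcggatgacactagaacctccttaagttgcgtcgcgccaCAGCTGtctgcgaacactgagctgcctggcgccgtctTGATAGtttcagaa

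The 3 Runx genes share sequence at their upstream starts that the choice of genes did not use. The longest run of letters common to their upstream windows was 18 bases, shown in capitals below, and it holds ACCACA, the reverse complement of TGTGGT, in 2 copies placed 2 bases apart. Among all 32544 windows the run was found at the 3 Runx genes and in the window of Gm16225, which overlaps that of Runx3 on the other strand. The run was picked from the 3 Runx windows themselves, so finding it there was fixed in advance and the count is a description only. Copies of ACCACA spaced in this way, on either strand, were found in 7 windows (0.0215%). The spacing was taken from the run itself, so the 4 windows holding the run are among these 7. The stretches of 50 bases come from chr16:92826025-92826074 on the minus strand for Runx1, chr17:44814578-44814627 on the minus strand for Runx2 and chr4:135120493-135120542 on the plus strand for Runx3. Counted from the start site as 0, the run began at 26 in Runx1, at 21 in Runx2 and at −136 in Runx3.
Runx1: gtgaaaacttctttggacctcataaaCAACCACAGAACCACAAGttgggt
Runx2: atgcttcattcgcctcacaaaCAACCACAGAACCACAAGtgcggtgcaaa
Runx3: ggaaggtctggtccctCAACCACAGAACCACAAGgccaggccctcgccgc

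The second Runx1 window, at the start nearer the gene's end (chr16:92697280-92697579), had a GC content of 69% and 35 CpG pairs, against 45% and 2 in the upstream window. The counts are per gene, so reads from different starts of a gene cannot be told apart. This holds for the 2 windows each of Runx1, Gata2, Tal1 and Runx3, and for any start without a window.

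The libraries held 9.22 M and 9.57 M unique reads, Procr+ first. Procr itself was at 1321 against 147 RPKM. The gate antigen genes Pecam1 and Eng were 13.5-fold (12.9 to 14.2) and 10.3-fold (9.72 to 10.9) higher in the Procr+ library, and Ly6a, the gene of the gate antigen Sca1, was lower there (203 against 486 RPKM), although both sorts were gated as positive for all of them. A pan-endothelial list of 20 genes was called higher throughout in the Procr+ library, by 2-fold or more on the log2(RPKM + 1) scale, with read ratios of 3.62-fold to 16.6-fold. Of 12 luminal epithelial genes, 11 were called lower in the Procr+ library. In the Procr- library, also labelled vascular endothelial, that list summed to 18681 RPKM against 825 RPKM. It was led there by Krt8 (5941 against 262 RPKM), Krt18 (4648 against 232 RPKM) and Cldn4 (2817 against 104 RPKM). The pan-endothelial list summed to 368 RPKM in that library and to 3642 RPKM in the Procr+ one, where Cdh5 was at 455 against 46.6 RPKM. What part these marker levels have in the differences of the transcription factor genes was not tested.

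**Figure D1:**
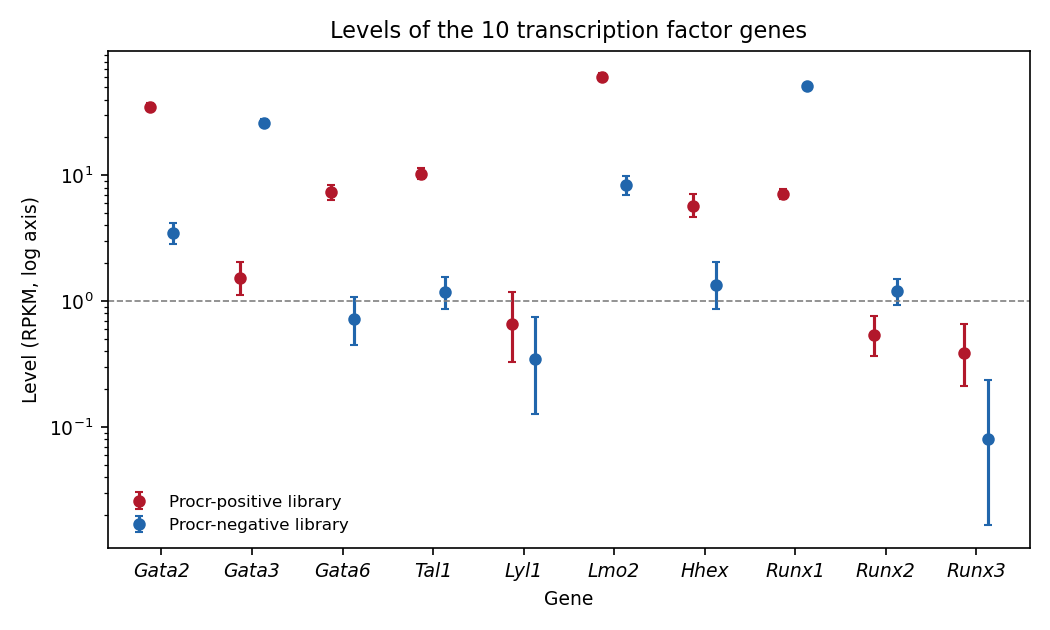
Level of each gene in RPKM (log axis) in the Procr+ (red) and Procr- (blue) library, 1 library each, with bars for the exact Poisson 95% interval of the reads and a dashed line at 1 RPKM. Lmo2 and Gata2 were the highest in the Procr+ library, at 60.6 and 35.1 RPKM, and Runx1 and Gata3 in the Procr- library, at 50.9 and 26.3 RPKM.

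Gata2 was the most abundant GATA gene of the Procr+ library. It had 1054 reads (35.1 RPKM, 33.0 to 37.3) there and 109 reads (3.50 RPKM, 2.87 to 4.22) in the Procr- library, a read ratio of 10.03-fold (8.23 to 12.3). The reads covered 98.2% and 77.3% of the gene's listed length. Gata2 lies on chromosome 6, 88193891 to 88207032 in GRCm38, on the plus strand. Its nearest coding neighbours did not show this difference: Rpn1, a subunit of the oligosaccharyltransferase, was at 28.9 and 47.5 RPKM, and Dnajb8 had 0 reads and 1 read.

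Gata3, the luminal regulator, had the opposite pattern. It had 46 reads (1.53 RPKM, 1.12 to 2.04) in the Procr+ and 818 reads (26.3 RPKM, 24.5 to 28.1) in the Procr- library, 17.1-fold higher in the latter (12.7 to 23.6). Gata3 lies on chromosome 2, 9857078 to 9887953, on the minus strand. Along it RefSeq places the long non-coding genes 4930412O13Rik, with 15 and 201 reads, and 9230102O04Rik, with 1 and 33 reads. Each was thus higher in the Procr- library as well, and since use of strand is not stated, reads of overlapping genes cannot be told apart. The nearest coding gene, Taf3, was at 2.90 and 2.67 RPKM, and Celf2 on the other side at 1.97 and 2.64 RPKM.

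Gata6, known from heart, gut and smooth muscle as well as endothelium, followed Gata2. It had 217 reads (7.37 RPKM, 6.42 to 8.42) and 22 reads (0.720 RPKM, 0.451 to 1.09), a ratio of 10.2-fold (6.59 to 16.7). Gata6 lies on chromosome 18, 11052510 to 11085636, on the plus strand. Of its coding neighbours, Mib1 was at 12.2 and 13.9 RPKM, and Rbbp8 was 1.95-fold higher in the Procr+ library (1.74 to 2.18). Smooth muscle and pericyte genes were also called higher in the Procr+ library, in 10 of 10 cases of a mural list, beside 13.1% of all genes kept. The mural list summed to 809 against 116 RPKM. The most abundant were Acta2 (193 against 35.0 RPKM), Rgs5 (187 against 12.8 RPKM) and Myh11 (117 against 11.6 RPKM). Their part in the Gata6 level was not tested.

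The leading GATA gene therefore differed between the libraries. Gata2, Gata3 and Gata6 summed to 44.0 RPKM in the Procr+ and 30.5 RPKM in the Procr- library. Gata2 made up 79.8% of that sum in the Procr+ and 11.5% in the Procr- library, and Gata3 3.48% and 86.2%. The RPKM ratio of Gata2 to Gata6 was 4.76 in the Procr+ and 4.86 in the Procr- library. The latter rests on 22 Gata6 reads (0.720 RPKM, 0.451 to 1.09), so it is known only roughly. The other GATA genes were hardly detected: Gata4 had 3 and 2 reads, Gata5 had 1 and 0 reads, and Gata1, the erythroid member, was listed in neither library.

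Lmo2, the bridging protein of the complex, had the highest level of the 10 genes in the Procr+ library. It had 919 reads (60.6 RPKM, 56.7 to 64.6) there and 131 reads (8.32 RPKM, 6.96 to 9.87) in the Procr- library, a ratio of 7.28-fold (6.05 to 8.81). The 60.6 RPKM lay at or above 92.9% of the genes listed in that library, and the 8.32 RPKM at or above 60.6% in the other. Lmo2 lies on chromosome 2, 103957903 to 103981878, on the plus strand, and of its coding neighbours 4931422A03Rik, 10.6 kb to the right, was listed in neither library and Caprin1, 160 kb to the left, was at 44.1 and 45.4 RPKM.

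Tal1, the helix-loop-helix partner needed for blood and vessel formation, had 395 reads (10.3 RPKM, 9.31 to 11.4) and 47 reads (1.18 RPKM, 0.868 to 1.57), a ratio of 8.72-fold (6.43 to 12.1). It lies on chromosome 4, 115056426 to 115071755, on the plus strand. Its flanking genes went the other way: Stil, which acts in centriole duplication, was at 0.570 and 3.35 RPKM, and Pdzk1ip1 at 1.06 and 6.30 RPKM. The RPKM ratio of Lmo2 to Tal1 was 5.88 in the Procr+ and 7.05 in the Procr- library.

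Lyl1, the close relative of Tal1, was near the limit of detection. It had 11 reads (0.656 RPKM, 0.328 to 1.17) and 6 reads (0.345 RPKM, 0.127 to 0.751), and the interval of the ratio, 0.645 to 6.26, held both directions. In the Procr+ library Tal1 was 15.7 times the level of Lyl1 by RPKM and made up 94.0% of their sum. Lyl1 lies on chromosome 8, 84701423 to 84704716, where the annotated span of Nfix (4.29 and 8.97 RPKM) overlaps it. Its coding neighbour Trmt1 was at 13.2 and 22.3 RPKM, and Dand5 had 8 and 9 reads.

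Hhex was the least different of the 5 genes that were higher in the Procr+ library. It had 94 reads (5.76 RPKM, 4.65 to 7.05) and 23 reads (1.36 RPKM, 0.861 to 2.04), a ratio of 4.24-fold (2.67 to 7.01). Hhex lies on chromosome 19, 37434841 to 37440731, on the plus strand. The mitotic kinesin gene Kif11, its neighbour on the left, was at 0.268 and 2.74 RPKM, and Exoc6 on the right at 12.3 and 9.55 RPKM.

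Runx1 had the highest level of the 10 genes in the Procr- library. It had 469 reads (7.13 RPKM, 6.50 to 7.80) in the Procr+ and 3475 reads (50.9 RPKM, 49.2 to 52.6) in the Procr- library, 7.14-fold higher in the latter (6.48 to 7.88). The reads covered 90.0% and 99.3% of its listed length. Runx1 lies on chromosome 16, 92601466 to 92826074, on the minus strand. RefSeq also places non-coding genes along Gata2 (Gm38708), Gata6 (Gata6os), Tal1 (Gm33786), Lmo2 (Gm38515), Runx1 (Gm30281) and Runx2 (Runx2os3), all of them listed in neither library. Clic6, the coding gene left of Runx1, was also higher in the Procr- library, at 5.89 against 0.667 RPKM, and Setd4 on the right had 12 and 16 reads.

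The other RUNX genes were low. Runx2, best known for bone formation, had 32 reads (0.536 RPKM, 0.367 to 0.757) and 74 reads (1.19 RPKM, 0.938 to 1.50). By read ratio it was 2.23-fold higher in the Procr- library (1.45 to 3.49). Runx3, known from T cells and sensory neurons, had 14 reads (0.390 RPKM, 0.213 to 0.655) and 3 reads (0.0806 RPKM, 0.0166 to 0.236), a ratio of 4.84-fold with a wide interval (1.35 to 26.3). Runx1 made up 88.5% and 97.6% of the summed RPKM of the 3 genes, which was 8.05 and 52.2.

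Runx2 lies on chromosome 17, 44495987 to 44814797, on the minus strand, and Runx3 on chromosome 4, 135120645 to 135177990, on the plus strand. Around Runx2, the overlapping gene Supt3 was at 3.88 and 4.44 RPKM, 4930564C03Rik was listed in neither library, and Clic5 was 2.76-fold higher in the Procr+ library (2.10 to 3.66), opposite to Runx2. Clic4, the neighbour of Runx3 on the right, was also higher in the Procr+ library, by 3.63-fold (3.56 to 3.70) and at 1229 against 339 RPKM. Syf2 on the left was at 56.2 and 53.9 RPKM.

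In the Procr+ library the order of levels was Lmo2, Gata2, Tal1, Gata6, Runx1, Hhex, Gata3, Lyl1, Runx2 and Runx3. The counting intervals of Gata6, Runx1 and Hhex overlapped each other there, as did those of Lyl1, Runx2 and Runx3, and that of Gata3 reached that of Lyl1. In the Procr- library the order was Runx1, Gata3, Lmo2, Gata2, Hhex, Runx2, Tal1, Gata6, Lyl1 and Runx3. The intervals of Hhex, Runx2, Tal1 and Gata6 overlapped, so no order among these can be read, and the interval of Lyl1 overlapped those of Gata6 and Runx3. Between the libraries the intervals of Lyl1 overlapped, and those of Runx3 overlapped narrowly.

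For a count beside all genes, genes reaching 1 RPKM in either library were kept, and a gene was called from 2-fold on the log2(RPKM + 1) scale, which understates differences of low genes. Of the 10 genes, 8 were kept, and Lyl1 and Runx3 were not. Gata6 passed through the Procr+ library alone and Runx2 through the Procr- library alone, so a difference in that direction was built into their entry. The same holds for genes of the marker and linked lists that reached 1 RPKM in 1 library alone. Of the 8, 5 were called higher in the Procr+ library, where 13.1% of all 12509 genes kept were, and 2 were called lower, where 23.7% were. Runx2, with a log2 difference of −0.52, was neither. The median log2 difference of the 8 genes was 1.90 and that of all genes kept was −0.38, and the 8 values ran from −3.43 for Gata3 to 3.0 for Gata2. Calls over all genes depended on scaling: 35.7% of them were higher as deposited, 59.6% after centring on the overall median and 51.5% with upper-quartile scaling. The 7 calls of the transcription factor genes kept their direction and stayed past 2-fold under every scaling tried. No scaling tried lowered the log2 difference of the 5 higher genes, so this was no check of those 5.

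**Figure D2:**
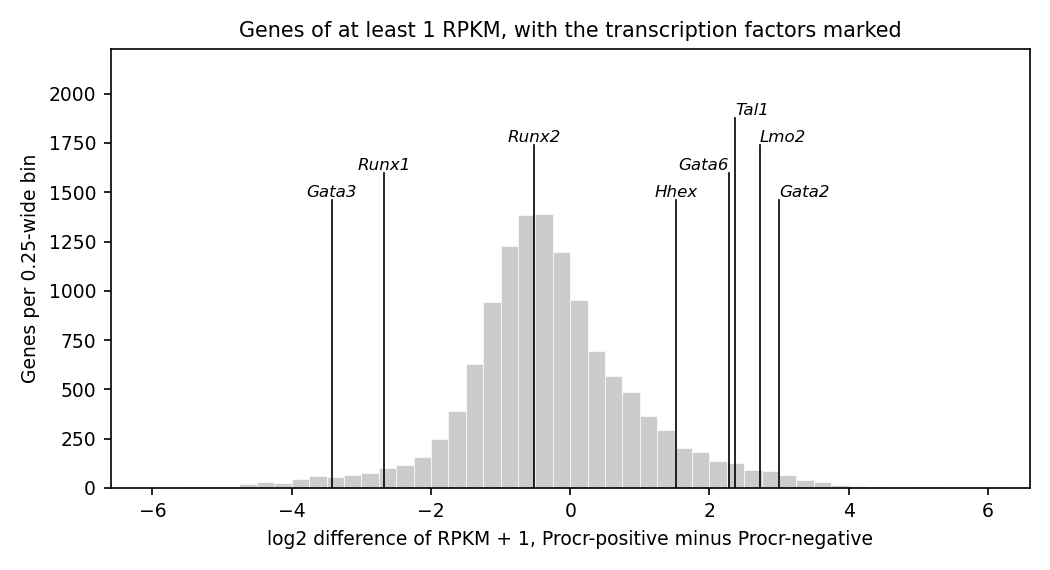
Number of genes per bin of the log2 difference of RPKM + 1 (Procr+ minus Procr-) over the 12509 genes kept, with vertical lines at the 8 transcription factor genes kept. Gata3 and Runx1 lay on the left flank at −3.43 and −2.67, Runx2 near the middle, and Hhex, Gata6, Tal1, Lmo2 and Gata2 on the right flank at 1.52 to 3.0.

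Beside the marker genes, Gata2, Gata6, Tal1, Lmo2 and Hhex had read ratios inside the range of the 20 pan-endothelial genes, whose median was 10.1-fold. On the log2(RPKM + 1) scale 14 of these 20 genes differed more than Gata2, 17 more than Lmo2, Tal1 and Gata6, and all 20 more than Hhex. That scale understates differences of low genes, and by read ratio the ranks were different. Gata2 (10.03-fold) and Gata6 (10.2-fold) then lay near the list's median. Egfl7 (4.11-fold) and Cldn5 (3.62-fold) differed less than Hhex (4.24-fold). As a share of the summed pan-endothelial RPKM, Gata2 was at 0.963% in the Procr+ and 0.951% in the Procr- library. The same share was 0.202% and 0.196% for Gata6, 0.283% and 0.321% for Tal1, 1.66% and 2.26% for Lmo2, and 0.158% and 0.369% for Hhex. The summed pan-endothelial RPKM was 9.91-fold higher in the Procr+ library, inside the counting intervals of the read ratios of Gata2, Gata6 and Tal1. It lay above those of Lmo2 and Hhex, and the share of Hhex was the furthest from level.

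Gata3 and Runx1 were set beside the luminal genes in the same way. Read ratios of the 12 luminal genes ran from 1.57-fold to 33.6-fold higher in the Procr- library, with a median of 22.4-fold. On the log2(RPKM + 1) scale 9 of the 12 differed more than Gata3 and 10 more than Runx1. By read ratio Elf5, at 11.3-fold, also differed more than Runx1, at 7.14-fold. As a share of the summed luminal RPKM, Gata3 was at 0.186% in the Procr+ and 0.141% in the Procr- library. Runx1 was at 0.864% and 0.273%, so its share was higher in the Procr+ library although its level was lower there.

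**Figure D3:**
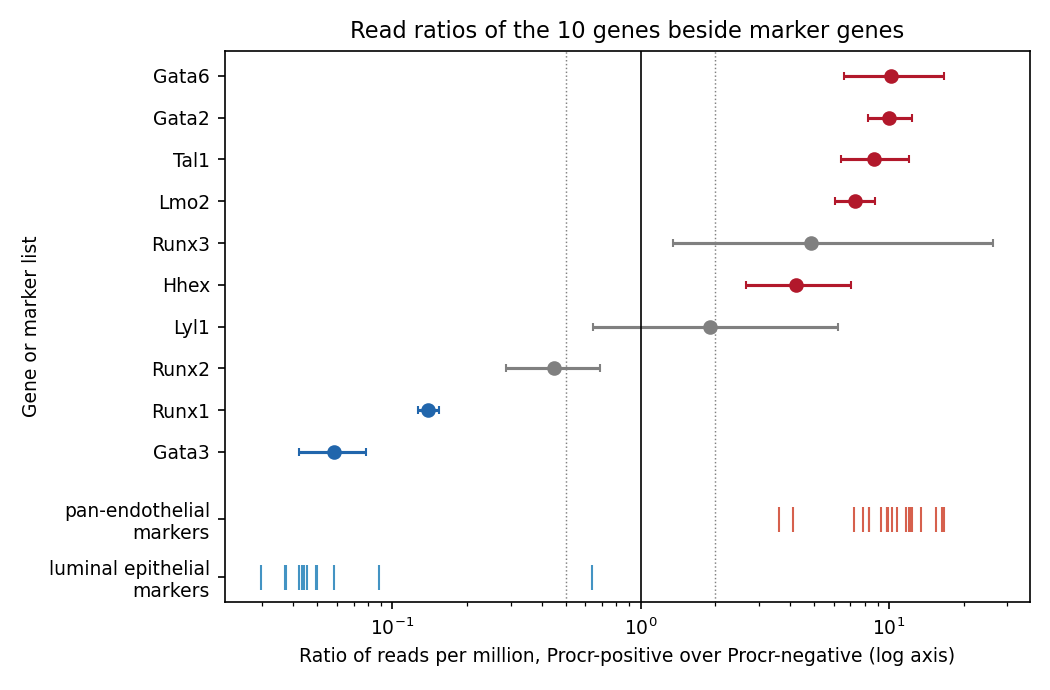
Ratio of reads scaled by library size, Procr+ over Procr- (log axis), for the 10 genes with exact 95% counting intervals, beside ticks for 20 pan-endothelial and 12 luminal epithelial marker genes, with dotted lines at 2-fold. Genes called higher are red, genes called lower blue and the other genes grey; the 5 red genes lie among the pan-endothelial ticks, between 4.24 and 10.2.

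Markers of other cells that use these factors varied. Of 9 T cell genes 3 were kept, of which 2, Thy1 and Lck, were called higher in the Procr+ library and none lower, and Cd247 was also past 2-fold with centring or upper-quartile scaling. The list summed to 44.2 and 9.67 RPKM, led by Thy1 (34.8 and 7.69 RPKM), which other cells also express. Lck, a kinase of T cell receptor signalling, had 138 and 28 reads (6.89 and 1.35 RPKM), and Cd247, a chain of that receptor complex, had 28 reads and 1 read. Cd3e had 7 and 2 reads and Cd3d 2 and 4 reads, and Cd3g and Trbc2 were listed in neither library. By RPKM, Cd3e was at 0.529 and 0.146. Of 9 myeloid genes, 7 were called higher in the Procr+ library and none lower, beside 13.1% and 23.7% of all genes kept. The myeloid list summed to 77.7 and 32.1 RPKM, led by Lyz2 (25.8 and 8.51 RPKM), Cd68 (19.7 and 15.6 RPKM) and Tyrobp (10.2 and 1.96 RPKM). The leukocyte antigen gene Ptprc was at 3.37 and 0.920 RPKM. What part T cells or other leukocytes have in the Gata3 and Runx1 levels was not tested. Mast cells also use Gata2: of 7 mast cell genes, 1, Mcpt4, was called higher as deposited and 2 with centring, when Cma1 (16 and 7 reads) passed as well. Kit was at 5.31 and 6.87 RPKM, Cpa3 had 10 and 9 reads, Ms4a2 was listed in neither, and the list summed to 11.7 and 9.91 RPKM. Of 8 erythroid and megakaryocyte genes listed in either library, 1, Itga2b, was called lower as deposited but not with centring or upper-quartile scaling, and none was called higher. Klf1 had 0 reads and 1 read, the globin genes Beta-s (13.2 and 16.4 RPKM) and Hba-a1 (8.39 and 11.4 RPKM) were the most abundant, and the list summed to 29.9 and 40.9 RPKM.

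Of 7 lymphatic endothelial genes, none was called higher as deposited (1, Flt4, with centring or upper-quartile scaling) and 2, Lyve1 (3.95 and 55.3 RPKM) and Pdpn, were lower, with sums of 14.3 and 69.1 RPKM. Prox1, the lymphatic regulator downstream of Hhex and Gata2, was at 1.52 and 2.12 RPKM, and Ccl21a was listed in neither library. Of 6 basal epithelial genes 1, Krt17, was called lower as deposited but not with centring or upper-quartile scaling, with sums of 94.2 and 168 RPKM. Krt14 was at 36.6 and 49.9 RPKM and Krt5 at 9.21 and 14.2 RPKM. Of 8 fibroblast genes 7 were called lower (5 with centring and 6 with upper-quartile scaling) and none higher, with sums of 172 and 731 RPKM, led by Dcn (17.8 and 287 RPKM), Col3a1 (85.5 and 148 RPKM) and Col1a2 (35.6 and 116 RPKM). The part of these cells in the levels of the transcription factor genes was not tested.

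The cofactors of the GATA, TAL1 and LMO2 complex were unevenly placed. Of 21 cofactor and partner genes 19 were kept, with a median log2 difference of 0.98 beside −0.38 for all genes kept. Of these 19, 9 were called higher in the Procr+ library, 2 lower and 8 neither. Over all genes kept 13.1% were called higher and 23.7% lower. Cbfa2t3 (3.46 against 0.504 RPKM), Runx1t1 (2.05 against 0.120 RPKM) and Zfpm2 (2.12 against 0.399 RPKM) reached 1 RPKM in the Procr+ library alone. A higher value there was thus built into their entry. Lmo1, a relative of Lmo2, was 11.9-fold higher (8.38 to 17.3; 37.9 against 3.19 RPKM). Ldb2, one of the LIM-binding adaptors, was 9.43-fold higher (7.70 to 11.6; 39.5 against 4.19 RPKM), whereas its relative Ldb1 was at 54.1 and 39.0 RPKM. Id1, an inhibitor of helix-loop-helix factors, was 6.43-fold higher (5.87 to 7.04; 408 against 63.5 RPKM).

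The E proteins, which pair with Tal1 and Lyl1, divided. Tcf4 was 6.98-fold higher in the Procr+ library (6.39 to 7.64; 55.6 against 7.96 RPKM). Tcf3 was 2.64-fold higher in the Procr- library (2.29 to 3.06; 22.2 against 8.40 RPKM), and Tcf12 was at 22.9 and 37.6 RPKM. Besides Tcf3, the corepressor gene Cbfa2t2 was called lower, at 2.24 against 6.56 RPKM. Neither was past 2-fold after centring on the overall median or with upper-quartile scaling, under which the list had 10 genes higher and 0 lower.

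The partners of RUNX proteins differed less than Runx1. Cbfb, the subunit that RUNX proteins need for stable DNA binding, was at 34.2 and 41.0 RPKM, a read ratio of 0.835 (0.765 to 0.911). Of 8 RUNX partner genes 3 were called higher in the Procr+ library and 1 lower, beside 13.1% and 23.7% of all genes kept. The list's median log2 difference was 0.51, beside −0.38 for all genes kept. The corepressor genes Tle1 and Tle4 were 4.23-fold (3.73 to 4.81) and 4.28-fold (3.74 to 4.92) higher there, and the coactivator gene Wwtr1 was at 124 and 57.4 RPKM. Hipk2, a kinase, was 4.81-fold higher in the Procr- library (3.92 to 5.95). With centring or upper-quartile scaling Yap1 was also past 2-fold.

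Of 6 ETS genes, 5 were listed and all 5 were called higher in the Procr+ library, where 13.1% of all genes kept were (median log2 difference 1.76). Sfpi1 reached 1 RPKM in that library alone. Erg and Fli1, which bind together with Gata2, Tal1, Lyl1, Lmo2 and Runx1 in blood progenitors, were 10.8-fold (9.48 to 12.3) and 9.10-fold (7.26 to 11.6) higher. Ets1 was 3.41-fold higher (3.28 to 3.53; 271 against 79.6 RPKM), and Etv6 was at 47.0 and 20.1 RPKM. Sfpi1, now named Spi1 and a myeloid regulator, had 28 and 6 reads, and Etv2 was listed in neither library. Of those 7 partners in blood progenitors, Runx1 was the only gene called higher in the Procr- library, and Lyl1 was not kept.

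Endothelial genes reported to carry GATA or TAL1-LMO2 sites were mostly higher in the Procr+ library, and 8 of them are also in the pan-endothelial list. Of 13, 12 were called higher there and none lower, beside 13.1% and 23.7% of all genes kept (median log2 difference 3.17). Vwf was 24.8-fold (22.8 to 27.0), Emcn 16.6-fold (14.8 to 18.7) and Pecam1 13.5-fold (12.9 to 14.2) higher. Edn1, the endothelin gene and a GATA target of long standing, was the exception at 35.0 and 30.3 RPKM.

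Of 10 genes of the embryonic passage from endothelium to blood, 7 were kept (median log2 difference 1.16). Of these, 4 were called higher in the Procr+ library and 2 lower, beside 13.1% and 23.7% of all genes kept. Ptprc and Sfpi1 reached 1 RPKM in the Procr+ library alone and Myb in the Procr- library alone. A difference in that direction was thus built into their entry. Mecom, a zinc-finger regulator of blood stem cells, was 14.5-fold higher (11.0 to 19.4; 18.4 against 1.27 RPKM) and Cd34 8.81-fold higher (8.09 to 9.62; 205 against 23.3 RPKM). Ptprc and Sfpi1 were the other genes called higher. Myb was 27.2-fold higher in the Procr- library (14.1 to 60.2; 7.03 against 0.258 RPKM). Itga2b, called lower at 3.38 against 8.12 RPKM, was not past 2-fold with centring or upper-quartile scaling. Gfi1, a Runx1 target in that passage, had 3 reads in each library, and Gfi1b was listed in neither.

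Luminal genes linked to Gata3 lay with it. Of 14, none was called higher in the Procr+ library and 12 were lower, beside 13.1% and 23.7% of all genes kept (median log2 difference −4.27). Elf5, Muc1, Esr1 and Pgr reached 1 RPKM in the Procr- library alone. Areg, a growth factor gene, was 48.8-fold (43.7 to 54.7), Krt19 26.7-fold (25.1 to 28.4) and Krt8 22.7-fold (22.0 to 23.4) higher in the Procr- library. The hormone-sensing regulators Esr1 and Foxa1 were 23.5-fold (16.6 to 34.4) and 28.9-fold (21.5 to 39.7) higher there. The 14 share 6 genes with the luminal marker list. Xbp1 (91.3 and 89.9 RPKM) and Tbx3 (10.1 and 10.3 RPKM) were level.

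**Figure D4:**
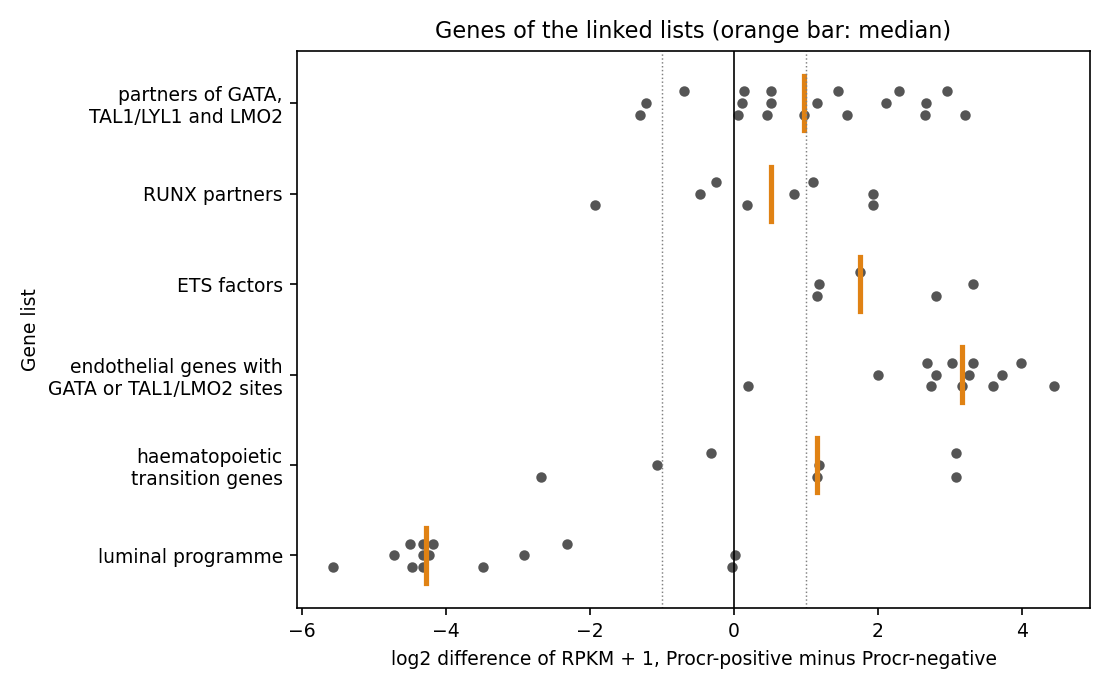
Log2 difference of RPKM + 1 (Procr+ minus Procr-) of each gene kept in 6 lists linked to the transcription factors, with 1 point per gene, spread vertically for visibility, an orange bar at the list's median and dotted lines at 2-fold. The medians run from −4.27 for the luminal programme to 3.17 for endothelial genes with GATA or TAL1-LMO2 sites.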

How the data were processed

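Single reads from 1 library per group that mapped at 1 place in mm10 were used by the authors, per the labels. Aligner, counter, annotation and use of strand: not given in the sources used here. The authors deposited whole-number read counts per gene, RPKM and, as a percent, the share of each gene's length covered by reads, per the file headers. Counts summed to the header totals, and RPKM followed from counts, lengths and totals. Genes without a read are not listed and were taken as 0.

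Read ratios are ratios of reads over all unique reads with exact conditional binomial (Clopper-Pearson) 95% intervals, and RPKM intervals are exact Poisson intervals. PCR copies are not independent molecules, so both cover counting error only. Log2 differences used a pseudocount of 1 RPKM. With 1 library per group no test was possible. The alternatives were other pseudocounts, filters and scalings. The calculations were tested on simulated data. Gene IDs of all 10 genes matched RefSeq (GRCm38.p6), and gene strands came from GENCODE M21 on the same assembly. Python 3.11.15, pandas 2.3.3, numpy 2.4.6 and scipy 1.17.1 were used.

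The 10 genes, the 7 linked lists and the 10 marker lists were chosen with earlier results of these data known. The rule named all 10 genes and their neighbours, the 3 genes with the largest difference in each linked list, the 3 most abundant in each marker list, and genes completing a count of 5 or fewer. The gate genes were named as a check of the sort. Ldb1, Tcf4, Tcf12, Cbfb, Yap1, Gfi1, Esr1, Foxa1, Cd3d, Cd3e, Cpa3, Klf1, Prox1 and Ptprc were named outside it, after their values were seen, as were genes listed in neither library or with 1 read. Cbfa2t3, Runx1t1, Zfpm2, Egfl7, Cldn5, Elf5, Muc1 and Pgr were also named after their values were seen.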

Additional observations from a re-analysis of the deposited data

How the results depend on the processing

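The 5 higher and 2 lower calls among the 10 genes kept their direction and stayed past 2-fold under all 8 alternative settings of pseudocount, filter and scaling, and their counting intervals excluded 2-fold. For the 5 higher calls each setting left the log2 difference unchanged or raised it, so staying past 2-fold was no check of them. The 2 lower calls came nearest to 2-fold with centring, at −3.049 for Gata3 and −2.295 for Runx1. The number called lower was 3 with a pseudocount of 0.1 RPKM or on reads scaled by library size with a prior of 1 read, when Runx2 passed as well. The median log2 difference of the genes entering was 0.94 without a filter, since Lyl1 and Runx3 then entered, against 1.90. Over all genes, 1644 were lower when log2 differences were centred on the overall median, against 2964 as deposited; the centring adds 0.38 to every value. No paired analysis was possible because there was 1 library per group, and none could be left out. Depth limits Lyl1 and Runx3, at 14 reads or fewer in each library, and Runx2, for which reads covered 20.4% and 41.3% of the listed length.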
